A study of Solanum phureja with 20 samples.

Results

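Tetraploid root tips were compared with monoploid root tips of one potato ploidy series, using the 8 two-colour spotted arrays of root RNA among the 20 arrays of the study. The tetraploid (4x), the diploids (2xR3, 2xR5) and the monoploid (1x) all belong to series O37, obtained from a Solanum phureja monoploid with 12 chromosomes whose chromosomes were doubled. All 4 lines therefore carry copies of one monoploid genome, and each ploidy end is represented by 1 line. RNA was taken from growing root tips 7 days after planting and was amplified before labelling. Chamber conditions, which the labels give for the growth of the plants, were 15 h of light at 23.5 °C, 9 h of dark at 15.5 °C and 50% humidity. How many plants went into a root sample is not stated in the labels.

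No root array held 4x and 1x together. Replicates 4 and 5 each comprised 4 arrays joined in a circle, where 4x was hybridised with each diploid and each diploid with 1x, so that every line met every dye once. The difference 4x minus 1x was solved in each loop through 2xR3 and through 2xR5, which gives 2 RNA samples of each line and 4 paths. Along a path the line of higher ploidy carries the same dye on both arrays. A path value therefore holds any dye effect of the clone, which has the opposite sign along the other path and cancels only in the loop mean. A level below is the log2 value of a clone in 1 RNA sample relative to the mean of the 4 lines in its loop. Such levels compare lines for 1 clone and cannot be set against those of another clone. The labels call the replicates biological without tying a replicate number to plants, and the p-values here reflect how far these RNA samples scatter, which may be technical. The sign of a deposited log2 ratio was taken to be that of Cy5 over Cy3, the likely but unstated direction, and all signs would turn if it were the other way.

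An autopolyploid carries further copies of the same chromosome sets, so that the genes present stay the same while their dosage and the size of the cells change. Root tips hold the meristem and the elongating cells behind it, and they consume much oxygen. When oxygen is short, plant roots turn to fermentation, in which alcohol dehydrogenase makes ethanol, and auxin guides division and elongation in the same tissue. Because array ratios are relative to the other clones on the slide, a change shared by all transcripts of a cell does not appear in them.

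Tetraploid root tips held far less alcohol dehydrogenase transcript than monoploid ones, and LOC102577927, LOC102577779 and LOC102586657, whose functions are not described here, led the rises among named genes. Of 8245 clones with a value on all 8 root arrays, 2481 passed (30.1%; limma, Benjamini-Hochberg adjusted p under 0.05), with 1223 (14.8%) higher in 4x and 1258 (15.3%) lower. An unadjusted p under 0.05 was reached by 3653. In bulk tips, fewer cells of a type and less RNA per cell cannot be told apart. Most of the differences were small. The median size was 0.42 on the log2 scale among the clones that passed and 0.19 among all tested, and the median standard error was 0.08. Without scaling of the arrays, the large ones ran mostly upward. Differences of at least 1.5-fold were rises in 491 clones and falls in 171, those of at least 4-fold were rises in 57 and falls in 5, and those of at least 8-fold were rises in 18 and falls in 2. Of the 62 clones at 4-fold or more, 56 carry no gene symbol in the platform annotation, 1 carries several and 5 carry exactly 1 (8.06%, close to the 7.02% of all tested clones).

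The 4 arrays that held 1x spread more widely than those that paired 4x with a diploid. Their median absolute deviation was 0.280 to 0.348, against 0.133 to 0.140, and the correlation between duplicate spots was 0.916 to 0.952 on them, against 0.585 to 0.740. Since each estimate of 4x minus 1x passes through 2 arrays with 1x in either loop, ploidy, the line and the RNA samples of 1x cannot be told apart. When all arrays were scaled to a common spread, 199 clones passed, 122 higher and 77 lower in 4x (61.3% higher, against 49.3% without scaling), and all 199 had also passed without scaling with the same sign. Scaling shrinks the arrays with 1x and stretches those of 4x with a diploid, so the diploid no longer cancels along a path. Every scaled value here and below weighs the step from diploids to 4x more than that from 1x to diploids. It is not a log2 difference of 4x and 1x, nor a second estimate of it. Scaled calls past the 2-fold cut-off numbered 45 rises and 15 falls, against 185 and 28 without scaling. Past the 4-fold cut-off they numbered 7 rises and 3 falls, against 57 and 5. Both loops gave 1 sign for all 2481 clones that passed, which the test nearly demands, and all 4 paths gave 1 sign for 2444 of them, against 4994 of all 8245.

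**Figure D1:**
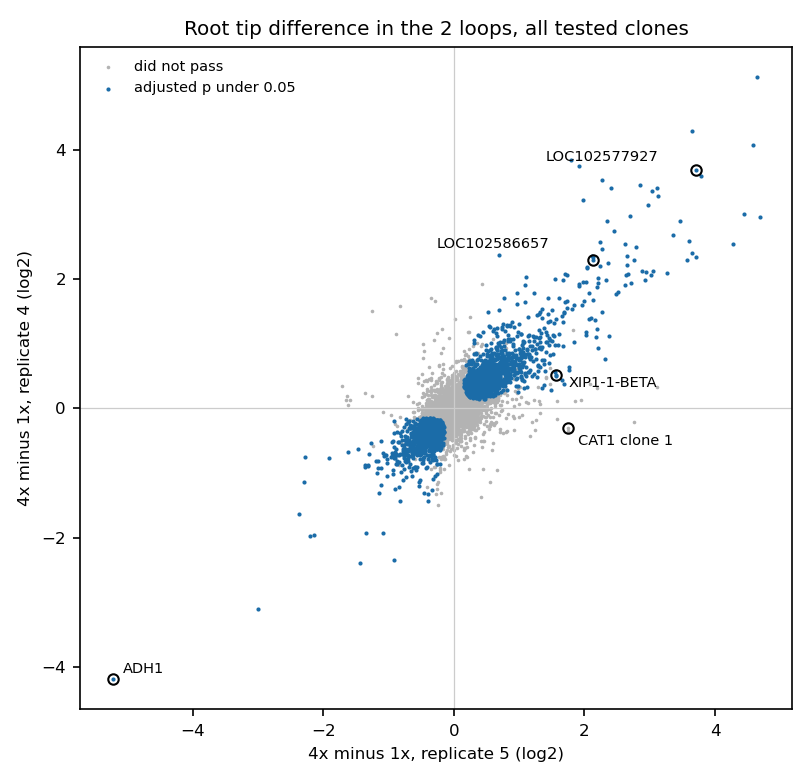
Root tip difference between 4x and 1x (log2) in replicate 5, on the horizontal axis, and in replicate 4, on the vertical axis, for each of the 8245 clones; blue points passed limma with Benjamini-Hochberg adjustment, grey points did not, and 5 named clones are circled. ADH1 stands alone at the lower left, the far rises reach further than the other falls, and CAT1 clone 1 lies where the replicates have opposite signs.

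Across clones the 2 loops correlated at r = 0.806 (8245 clones, which share arrays and are no independent replicates). Names could be given to 579 of the tested clones, those whose spots carry exactly 1 symbol, which belong to 359 genes. Among them 162 passed (28.0%), 80 higher and 82 lower in 4x, and 119 genes had at least 1 such clone. Clones of one gene often gave close values. Over the 135 genes with several tested clones, the median standard deviation between clones was 0.07, but it was over 0.5 in 3 genes. Several clones passed for 31 genes, and their signs clashed in 1 of them, LOC102593187, at 0.82 in one clone and -0.53 in the other. The clones of LOC102587499, described below, also split in sign, but those above 0 did not pass.

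ADH1, the alcohol dehydrogenase of ethanol fermentation, showed the largest fall of all 8245 clones. Its levels were -2.25 and -2.53 in the 4x samples of replicates 4 and 5, against 1.93 and 2.70 in those of 1x. The diploids lay between the ends in both loops, with 2xR3 at -0.28 and -0.50 and 2xR5 at 0.60 and 0.34. ADH1 therefore stood lower in 4x than in any other line in either loop, and higher in 1x. The difference was -4.70 ± 0.26 (log2, SE, n = 2; limma, adjusted p = 6.02e-04), a 26.1-fold fall. The paths through 2xR3 gave -4.27 and -5.83 and those through 2xR5 gave -4.09 and -4.62. The next largest fall of any clone was -3.05, of a clone that is not named here.

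The ADH1 difference was divided almost evenly between the steps: 4x stood 2.43 below the mean of the diploids, and the diploids 2.27 below 1x. After scaling of the arrays it was -5.22 and still passed (limma, adjusted p = 0.003). LDH-2, a lactate dehydrogenase of the other fermentation branch, did not follow. Its levels were -0.04 and -0.03 in 4x, against 0.05 and 0.07 in 1x, and its difference of -0.09 ± 0.08 did not pass (limma, adjusted p = 0.383). For the glycolytic enzymes upstream of fermentation 0 of 5 clones of 2 genes passed, where 30.1% of all clones did, with GAPDH, glyceraldehyde-3-phosphate dehydrogenase, at -0.14 to 0.02 in 4 clones and PK, pyruvate kinase, at -0.22.

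**Figure D2:**
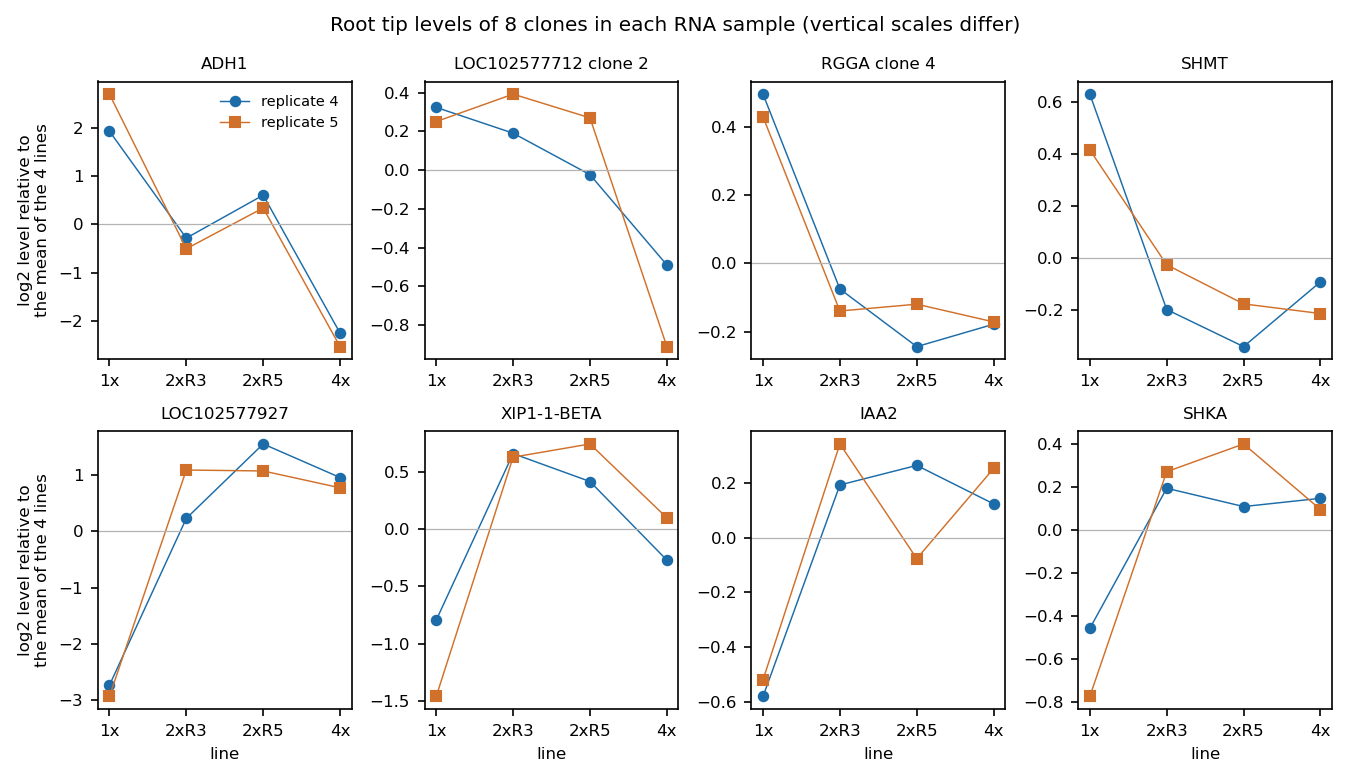
Log2 level of 8 clones in each RNA sample, relative to the mean of the 4 lines in its loop, with lines in order of ploidy along the horizontal axis; circles are replicate 4, squares replicate 5, and vertical scales differ between panels. ADH1 steps down over the ploidies, with 1x at 1.93 and 2.70 and 4x at -2.25 and -2.53, LOC102577712 clone 2 is low in 4x alone, and in LOC102577927, XIP1-1-BETA, IAA2 and SHKA the 1x samples stand below the other lines.

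The largest rise among the named clones was that of LOC102577927, which was the sixth largest among all tested. Its levels were 0.95 and 0.77 in 4x, against -2.73 and -2.93 in 1x, and 0.23 to 1.55 in the 4 diploid samples. The 1x samples thus lay far below all others, and the loops agreed closely, at 3.69 and 3.70. The difference was 3.69 ± 0.30 (log2, SE, n = 2; limma, adjusted p = 0.002), 12.9-fold, and after scaling it was 2.33 and passed. LOC102586657 behaved alike, with 0.48 and 0.29 in 4x against -1.81 and -1.84 in 1x. It rose by 2.21 ± 0.13 (limma, adjusted p = 7.32e-04), 4.62-fold, and by 1.16 after scaling, where it also passed.

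LOC102577779 was measured by 2 clones, which rose together. Clone 2 stood at 0.58 and 0.48 in 4x, against -1.55 and -2.57 in 1x, and clone 1 at 0.55 and 0.45 in 4x, against -1.51 and -2.19. The differences were 2.59 ± 0.39 and 2.35 ± 0.35 (limma, adjusted p = 0.008 for both). Neither passed after scaling, at 1.54 and 1.41. The next rises were smaller: LOC102577854 by 1.29, LOC102598951 by 1.28, LOC102577566 clone 1 by 1.11, LOC102601763 by 1.09 and LOC102606273 by 1.05. LOC102577514 clone 2 (0.99), LOC102577529 (0.85) and LOC102593187 clone 2 (0.82) followed, and XIP1-1-BETA, MIP2 clone 2 and IAA2, described below, completed the 15 largest. The second clones of LOC102577566 (0.54) and LOC102577514 (0.44) did not pass.

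Over these 15 clones 4x stood between 0.70 below and 0.32 above the mean of the diploids, while the diploids stood 0.60 to 3.82 above 1x. The 2 differences share the diploid samples. Of the 15 calls, 4 remained after scaling, those of LOC102577927, LOC102586657, LOC102577854 and LOC102601763, at 0.84 to 2.33. No description came with the LOC symbols, so that no function is given for them.

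Among the falls after ADH1, LOC102584296 led, with -0.33 and -0.50 in 4x against 0.58 and 0.62 in 1x. It fell by 1.02 ± 0.09 on the log2 scale (n = 2; limma, adjusted p = 0.002), 2.02-fold. Both clones of LOC102577712 fell, at -0.99 ± 0.17 and -0.76 ± 0.16, and in both the diploids stood closer to 1x than to 4x. Clone 2 was at -0.49 and -0.91 in 4x, against 0.32 and 0.25 in 1x, with the diploids at -0.02 to 0.39. So 4x alone stood low: it lay 0.91 below the diploids in clone 2 and 0.93 below in clone 1, whereas the diploids stood at -0.08 and 0.17 against 1x. After scaling clone 1 passed at -1.30 (limma, adjusted p = 0.0499), and clone 2 did not at -1.43. LOC102587499 clones 3, 6, 8 and 9, described below, also had the diploids closer to 1x. In 8 of the 15 largest falls the diploids stood closer to 4x.

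LOC102577429 also fell in both its clones, by 0.90 and 0.81, with loop values of -0.54 and -1.26 in clone 1 and -0.50 and -1.12 in clone 2. Replicate 5 gave the larger size in both clones. LOC102581985 fell in 3 of 3 clones, by 0.57 to 0.75, and LOC102577790 in 2 of 3, by 0.70 and 0.69, the other clone standing at -0.21. LOC102585483 fell by 0.79. LOC102577909 was less even. Its clone 3 fell by 0.80, with -1.26 and -0.34 in the loops, while 3 further clones stood between -0.29 and 0.68 and did not pass. After scaling LOC102585483 passed, at -0.76. Scaling ended the other calls of this paragraph: LOC102577429 stood at -0.89 and -0.79, LOC102581985 at -0.45 to -0.37 in its 3 clones, LOC102577790 clones 1 and 3 at -0.48 and -0.44, and LOC102577909 clone 3 at -0.46.

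The clones of LOC102587499 fell into 2 sets, an observation made after their values were seen. In 6 of the 10 clones 4x was lower by 0.63 to 0.90, and all 6 passed (limma, adjusted p = 0.006 to 0.011). In the other 4, 4x was higher by 0.73 to 0.87 and none passed (limma, adjusted p = 0.082 to 0.167). The sets differed in the diploids: in the 6 clones the diploids stood 0.10 to 0.53 below 1x, and in the 4 clones 1.41 to 1.65 above 1x. Against the diploids 4x was lower in both sets, by 0.09 to 0.71 in the 6 clones and by 0.62 to 0.78 in the 4. After scaling the 4 clones stood at -0.12 to 0.00 and the 6 at -1.17 to -0.49, of which 3 passed. In the joint fit with leaf described below the 4 clones passed (limma, adjusted p = 0.009 to 0.041). The spread in that fit comes mostly from leaf samples, so it is no second test of root scatter. Which transcripts of a gene family each clone binds was not tested.

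**Figure D3:**
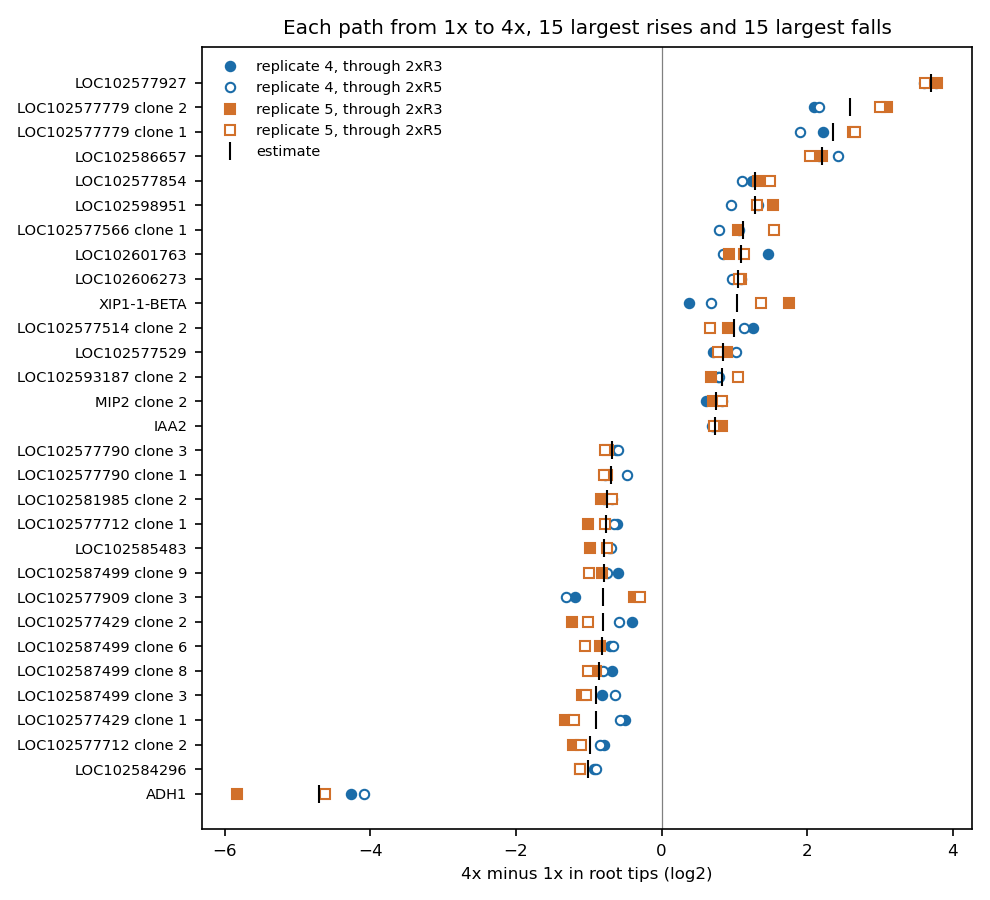
Root tip difference between 4x and 1x (log2) along each path for the 15 largest rises and the 15 largest falls among named clones; filled symbols run through 2xR3, open symbols through 2xR5, circles are replicate 4, squares replicate 5, and the bar is the estimate. In each of the 30 clones the 4 paths lie on one side of 0, and ADH1 has the widest spread among the falls, from -5.83 to -4.09.

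The pathway lists hold 37 genes with 77 clones on the array, of which 58 clones of 34 genes were tested. PHA1, F3H and PME1 had no clone with a value on all root arrays. Of the 58 clones 10 were higher and 4 lower in 4x (24.1%, against 30.1% of all clones). The median difference over the 58 was 0.07 and the median size 0.19, against -0.01 and 0.19 over all tested clones. The listed clones as a whole thus stood near the background of the array. In 12 of the 14 that passed, and in 36 of the 44 that did not, the diploids stood closer to 4x than to 1x. Those 12 calls therefore set 1x apart more than they set 4x apart.

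In the auxin list both clones rose, where 14.8% of all clones did. IAA2 and IAA3 encode Aux/IAA proteins, short-lived repressors of auxin-responsive transcription that auxin itself induces in many plants. IAA2 stood at 0.12 and 0.25 in 4x, against -0.58 and -0.52 in 1x, and rose by 0.74 ± 0.13 (limma, adjusted p = 0.011). IAA3 stood at 0.13 and 0.26 in 4x, against -0.39 and -0.40 in 1x, and rose by 0.59 ± 0.08 (limma, adjusted p = 0.006). In both genes the 4x and 1x samples were clearly apart, but the diploids stood near 4x, at 0.73 above 1x for IAA2 and 0.50 for IAA3. After scaling IAA2 stood at 0.48 and IAA3 at 0.46, and neither passed. ERS, an ethylene receptor, was at -0.08 and did not pass.

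Of the intrinsic proteins, channels for water and small solutes in membranes, 2 of 3 clones rose, where 14.8% of all clones did. XIP1-1-BETA, of the X intrinsic protein family, stood at -0.27 and 0.10 in 4x, against -0.80 and -1.46 in 1x, and at 0.41 to 0.74 in the diploids. Its rise was 1.04 ± 0.25 (limma, adjusted p = 0.026), with 0.52 and 1.56 in the loops, and 4x lay 0.70 below the diploids. The loops differ widely in size here, and after scaling the difference was 0.09 and did not pass. MIP2 clone 2 was more even, with 0.06 and 0.11 in 4x against -0.65 and -0.66 in 1x. It rose by 0.74 ± 0.06 (limma, adjusted p = 0.002), and stood at 0.31 after scaling, where it did not pass. MIP2 clone 1 stood at 0.08, with -0.14 and 0.30 in the loops.

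Amino acid enzymes moved both ways. SHKA, which catalyses the entry step of the shikimate pathway to aromatic amino acids, stood at 0.15 and 0.10 in 4x, against -0.46 and -0.77 in 1x. It rose by 0.74 ± 0.14 (limma, adjusted p = 0.014). SHMT, serine hydroxymethyltransferase, which interconverts serine and glycine, stood at -0.09 and -0.21 in 4x, against 0.63 and 0.42 in 1x, and fell by 0.68 ± 0.11 (limma, adjusted p = 0.011). After scaling both calls ended, at 0.39 and -0.40. BCAT2, a branched-chain aminotransferase, stood at 0.13 and did not pass.

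In the methionine cycle 0 of 10 clones passed, where 30.1% of all clones did. METK1, S-adenosylmethionine synthetase, was measured by 9 clones at -0.05 to 0.22. All 9 were above 0 in replicate 4, at 0.08 to 0.38, while in replicate 5 they ran from -0.25 to 0.06. The loops therefore differed by more than the mean effect, in the same way in each clone. ARD, acireductone dioxygenase of methionine salvage, was at -0.06.

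Redox genes were mixed, with 2 rises and 1 fall among 10 clones (30%, against 30.1% of all clones). NAD(P)H:QR, a quinone reductase, stood at 0.06 and 0.11 in 4x, against -0.30 and -0.59 in 1x, and rose by 0.53 ± 0.11 (limma, adjusted p = 0.020). DHAR2 and DHAR, dehydroascorbate reductases that regenerate ascorbate, disagreed. DHAR2 clone 1 rose by 0.26 and clone 2 stood at 0.20. DHAR clone 2 fell by 0.58 ± 0.10, whereas clones 1 and 3 stood at 0.29 and 0.12 and did not pass. GRX2, a glutaredoxin, was at 0.24 (limma, adjusted p = 0.056), and passed at 0.25 when arrays were re-centred on their medians. None of the 3 redox calls remained after scaling, at 0.28 for NAD(P)H:QR, 0.36 for DHAR2 clone 1 and -0.60 for DHAR clone 2. DHAR2 clone 1 and DHAR clone 2 were thus larger in size with scaling than without it. With either replicate left out, NAD(P)H:QR (0.70 and 0.36) and DHAR2 clone 1 (0.27 and 0.25) did not pass.

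CAT1, a catalase that breaks down hydrogen peroxide, gave the least repeatable values of the lists. Clone 1 stood at -0.12 and 0.41 in 4x, against 0.18 and -1.34 in 1x. Its loops gave -0.30 and 1.75, and those of clone 2 gave -0.36 and 1.74. The 1x samples of the 2 replicates lay on opposite sides of the 4x samples in both clones. The means of 0.72 ± 0.51 and 0.69 ± 0.50 did not pass (limma, adjusted p = 0.318 and 0.329), and clone 3 stood at -0.06 in each loop. The value of 1.74 for CAT1 clone 2 in replicate 5 comes from 1 RNA sample of each line. VPE2, a vacuolar processing enzyme, also differed between the loops, by less than CAT1 and on one side of 0, at 0.47 and 1.42. Its mean of 0.94 ± 0.37 did not pass (limma, adjusted p = 0.103). The same mean passed in the joint fit with leaf described below (limma, adjusted p = 0.015). The spread in that fit comes mostly from leaf samples, so it is no second test of root scatter.

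Among wound and defence genes 2 of 6 clones rose and 1 fell (50%, against 30.1% of all clones). Both rises belong to STWRKY8, a WRKY transcription factor, whose clones stood higher in 4x by 0.34 and 0.36 (limma, adjusted p = 0.044 and 0.049). Clone 1 had -0.00 and -0.05 in 4x, against -0.39 and -0.33 in 1x. Both calls are marginal: after scaling the clones were at 0.03 each, and neither passed with the 75% rule for missing values. Clone 1 did not pass in the joint fit with leaf either (limma, adjusted p = 0.060). The loops of STWRKY8 clone 1 gave 0.39 and 0.28. R1 clone 2 fell by 0.37, with -0.38 and -0.36 in the loops, and clone 1 stood at -0.02. The symbol R1 is shared by a disease resistance gene and a starch enzyme, so no role is given. The lipoxygenase POTLX-3 stood at 0.30 and the polyphenol oxidase PPO at 0.22, and neither passed.

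CDPK1, a calcium-dependent protein kinase of the tuberization list, rose by 0.48 ± 0.07 (limma, adjusted p = 0.008), with 0.17 and 0.05 in 4x against -0.36 and -0.38 in 1x. Scaling took it to 0.30 without a call. BEL5, a BEL1-like homeodomain protein that promotes tuber formation, stood at -0.18 and did not pass. In the starch and sucrose list 0 of 4 clones passed, where 30.1% of all clones did. They stood at -0.32 to -0.14, for GBSS, granule-bound starch synthase, and AMYA1, an alpha-amylase. The nearest to the threshold was GBSS clone 1 (-0.32, limma, adjusted p = 0.065). PHA2, a plasma membrane proton pump, stood at 0.25, KST1, a potassium channel, at -0.18 and -0.06, and FLS, flavonol synthase, at 0.14 and 0.21. None of these 5 clones passed.

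The markers of dividing cells and of green tissue gave no call. CYCD3.2 and CYCD3.3, D-type cyclins that drive entry into division, stood at 0.26 ± 0.11 and 0.11 ± 0.09 (limma, adjusted p = 0.127 and 0.416). PSBR, a photosystem II subunit, stood at -0.09 and 0.07 in 2 clones, out of 6 on the array. Ratios show only shifts between lines, so that the presence of either cell type was not measured. Of the 14 listed calls, ADH1 was the one that remained after scaling.

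**Figure D4:**
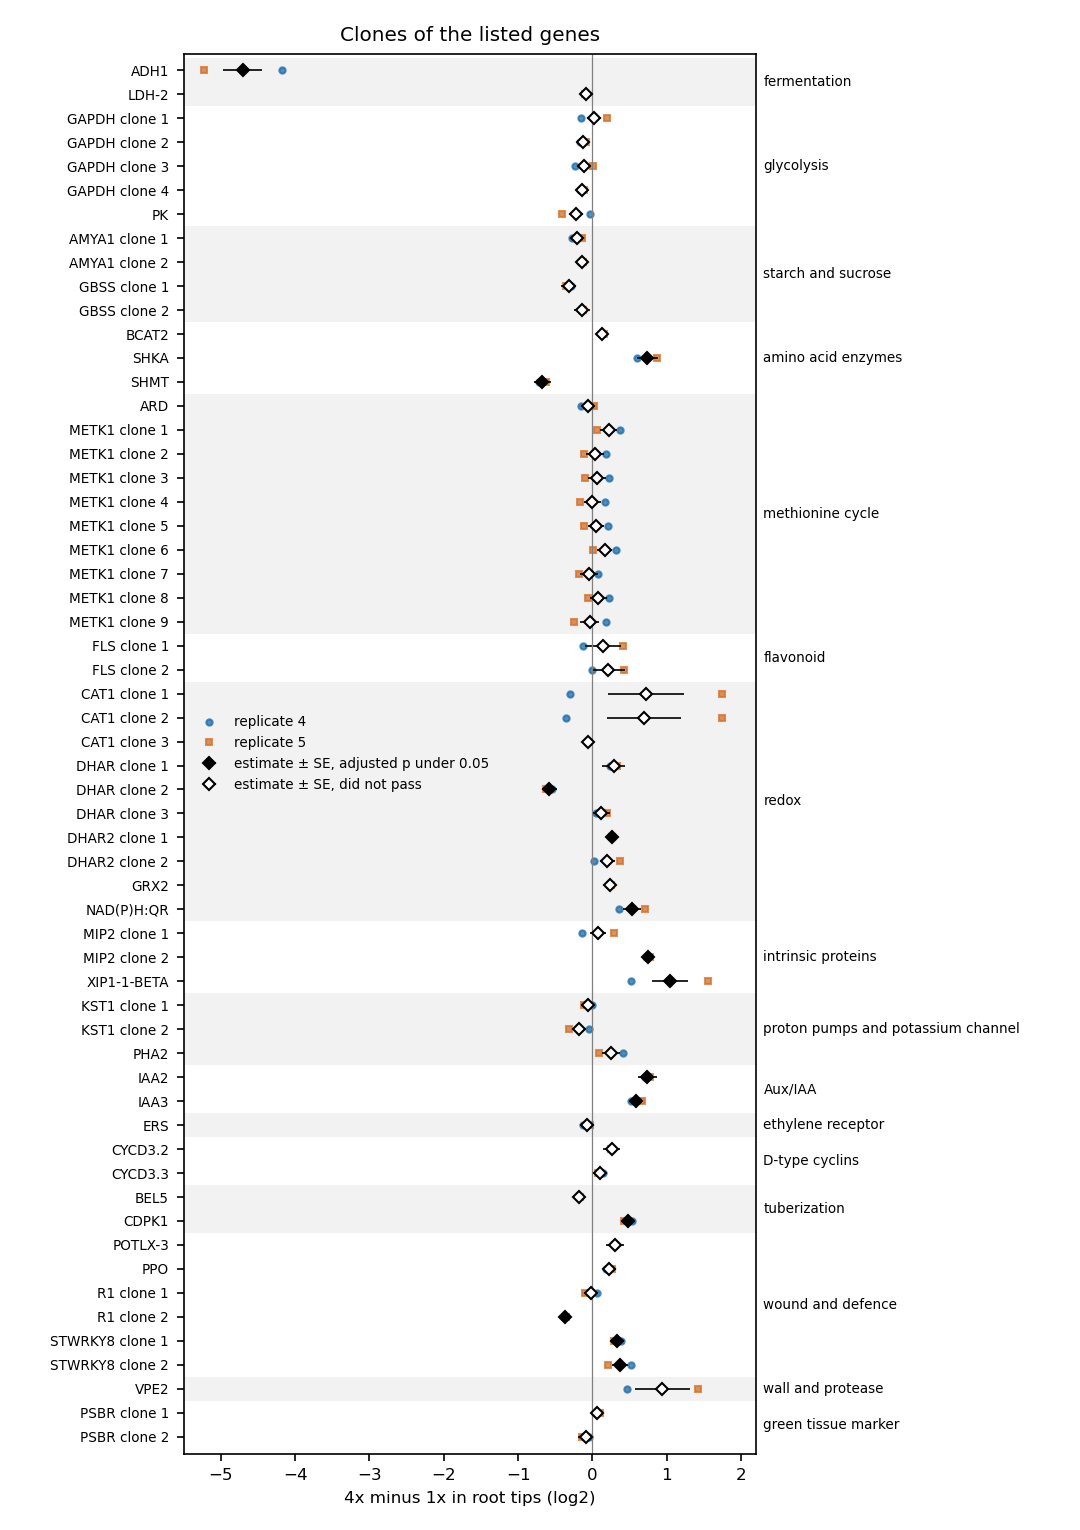
Root tip difference between 4x and 1x (log2) for the 58 tested clones of the listed genes, by group; circles are replicate 4, squares replicate 5, and diamonds the estimate with its SE, filled where the clone passed limma with Benjamini-Hochberg adjustment. The 14 filled diamonds include ADH1 at -4.70, and CAT1 clones 1 and 2 have replicates on opposite sides of 0.

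Some further genes with a symbol of their own were named after their values were seen. RGGA fell in 3 of 4 clones, by 0.26, 0.27 and 0.64, and clone 4, at -0.18 and -0.17 in 4x against 0.50 and 0.43 in 1x, passed after scaling too, at -0.44. SRE1A rose in 3 of 3 clones, by 0.25 to 0.32, with 0.25 to 0.37 in replicate 4 and 0.22 to 0.27 in replicate 5. No call remained after scaling (0.03 to 0.11). DE2 and IPKA fell by 0.31 and 0.41, and PEST2 rose by 0.30. Those 3 calls ended with scaling. Replicate 4 gave -0.38, -0.47 and 0.36 for them, and replicate 5 gave -0.25, -0.35 and 0.25. RGGA clones 1 and 3 gave -0.24 and -0.19 in replicate 4, and -0.28 and -0.35 in replicate 5.

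Leaf offered the same contrast in another organ, with 3 RNA samples of each line taken from leaflets of 6 plants per line at 20 days. In leaf replicate 3, unlike in root, 4x and 1x were hybridised together, in both dye orders. The genes with the strongest root tip changes showed far smaller differences in leaf. They were picked by their root values, so smaller values in another contrast follow in part from that choice. In 1 limma fit of the 5121 clones with a value on all 20 arrays, root minus leaf of the 4x minus 1x difference passed for 1614 clones (31.5%), 758 with a higher and 856 with a lower value in root. Across these clones the root and leaf differences correlated at r = 0.117, as a description over clones that share arrays. In the joint fit 1699 clones passed in root (33.2%) and 2162 in leaf (42.2%), and 736 passed in both, which is 43.3% of the root and 34.0% of the leaf calls. Of those 736, 492 had the same sign and 244 the opposite one. Without scaling of the arrays, differences of 2-fold or more numbered 93 in root and 18 in leaf, with 1 clone in both. Fewer root clones were past the 2-fold cut-off with scaling, as given above, but scaled values are no log2 differences of 4x and 1x. For 89 of the 93 the tissue difference passed. The 93 were chosen by the root value that this difference contains, so that count is nearly fixed by the choice.

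ADH1 in leaf stood at 0.27, 0.74 and 0.02 in the 3 replicates, a mean of 0.34 ± 0.17 that did not pass (limma, adjusted p = 0.115). Root minus leaf was -5.05 ± 0.27 (limma, adjusted p = 6.28e-08). The named genes with the largest root rises stood close to 0 in leaf: LOC102577927 stood there at 0.16, LOC102577779 at 0.15 and 0.20, and LOC102586657 at -0.12, none of which passed. Of the 15 largest rises 9 were measured in leaf, where they stood at -0.52 to 0.27, and of the 15 largest falls 12, at -0.31 to 0.52.

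Some genes ran in opposite directions. LOC102606273 rose by 1.05 in root and stood at -0.52 in leaf, LOC102577743 at 0.73 and -0.55, LOC102584296 at -1.02 and 0.46, and LOC102577429 clone 1 at -0.90 and 0.49, and each passed in both tissues. The root size of LOC102577743 came more from replicate 5, whose loop gave 1.04, against 0.43 in replicate 4. It did not pass after scaling, at 0.46. Other genes differed between tissues through leaf. ERS was 0.68 ± 0.06 higher in 4x leaf and stood at -0.08 in root. GBSS clone 1 stood at 0.85 in leaf against -0.32 in root, AMYA1 clone 2 at 0.61 against -0.14, and CYCD3.3 at -0.51 against 0.11. The auxin genes ran the other way, with IAA2 and IAA3 at -0.05 in leaf and past the threshold in root. SRE1A rose by 0.89 to 0.95 in leaf, more than in root, where clones 1 and 3 did not pass in the joint fit (limma, adjusted p = 0.069 and 0.052).

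**Figure D5:**
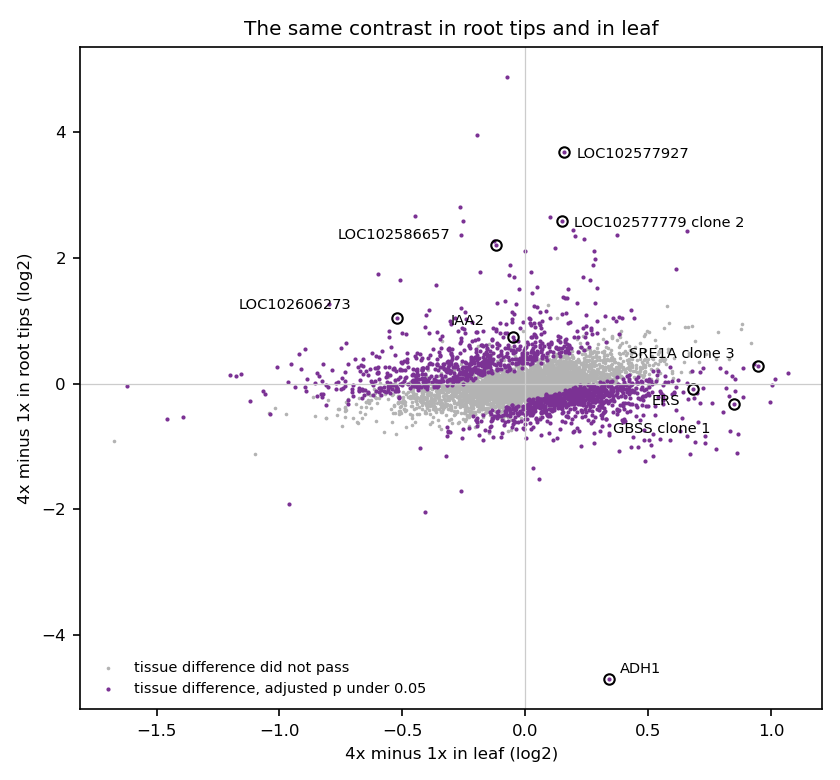
Difference between 4x and 1x (log2) in leaf, on the horizontal axis, and in root tips, on the vertical axis, for the 5121 clones measured on all arrays; purple points passed limma's test of the tissue difference with Benjamini-Hochberg adjustment, and 9 named clones are circled. LOC102577927, LOC102577779 clone 2 and LOC102586657 lie close to 0 on the leaf axis, and ERS close to 0 on the root axis. ADH1 lies at 0.34 and LOC102606273 at -0.52 in leaf, and GBSS clone 1 at -0.32 in root.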

How the data were processed

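The values analysed are log2 ratios of 2 channels per spot, in the form the authors deposited. Limma is named in the submitters' processing notes; its version and the background and within-array methods are not given in the sources used here. No spot intensities were used, so dim or saturated spots could not be examined. Array medians lay within 0.014 of 0. Per the print layout, 32448 spots form 15360 clones with 2 spots each, whose mean was used; the layout was inferred, and all 905 accessions with 2 annotated spots fell on a pair. Array number limits the precision, with 17128 to 17829 spots with a value per root array.

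Each loop was solved by least squares for its 4 lines, which cancels a dye effect of a clone. Limma 3.58.1 (lmFit, eBayes; R 4.3.3) was run on the sample values, with line and a replicate block, since ratios exist only within a loop; 3 residual degrees of freedom remained. Benjamini-Hochberg adjustment ran over the 8245 clones with a value on all 8 arrays, and over 5121 clones in the joint fit with leaf. The joint fit had 8 residual degrees of freedom, 3 from root and 5 from leaf, so root calls in it rest mostly on leaf scatter. The root fit was tested on simulated arrays in which all lines had the same spread, unlike the arrays here. The joint fit with leaf was not tested in this way.

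Gene names are those of GEO's platform annotation and may be outdated: 1630 spots had 1 symbol, 180 several and 30638 none. Named were the 15 largest rises and falls past the threshold with 1 sign in both replicates, the listed genes, the 10 largest tissue differences, and genes said to be named after their values were seen. Groups by gene description could not be formed, as no description came with the symbols. Members and lists were chosen with earlier results of these data known.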

Additional observations from a re-analysis of the deposited data

Results flagged for a closer look

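The difference between 4x and 1x itself differed between root tips and leaf for 1614 of 5121 clones, by limma's test of the tissue difference. The values here are log2, root minus leaf. No array held both tissues, root RNA was amplified, and root tips were sampled at 7 and leaflets at 20 days after planting, so that tissue, age and RNA handling cannot be told apart.

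Among named clones with a value above 0 were LOC102577927 (3.54), LOC102577779 clones 2 and 1 (2.44 and 2.15), LOC102586657 (2.32), LOC102606273 (1.57), LOC102577743 (1.29) and LOC102577566 clone 1 (1.16). The auxin repressors IAA2 and IAA3 (0.786 and 0.639) also lay above 0. So did DHAR2 clones 2 and 1 (0.643 and 0.607), CYCD3.3 (0.616), MIP2 clone 2 (0.601), LOC102577529 (0.58), CAT1 clone 3 (0.494), SHKA (0.493) and PEST2 (0.42).

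Below 0 were ADH1 (-5.05), LOC102584296 (-1.48), LOC102577429 clones 1 and 2 (-1.39 and -1.33), LOC102577712 clones 2 and 1 (-1.21 and -1.07) and LOC102577790 clones 1 and 3 (-0.912 and -0.635). Starch enzymes were among them, GBSS clones 1 and 2 (-1.17 and -0.747) and AMYA1 clone 2 (-0.749), with the ethylene receptor ERS (-0.762). LOC102587499 clones 8, 3, 9 and 7 stood at -0.755, -0.725, -0.698 and -0.65. IPKA (-0.705), R1 clone 2 (-0.681), SRE1A clones 3, 1 and 2 (-0.666, -0.64 and -0.613), DE2 (-0.624), RGGA clone 4 (-0.588) and DHAR clone 2 (-0.484) followed. The smallest were PHA2 (-0.473), PK (-0.444), LOC102581985 clone 2 (-0.433) and METK1 clone 9 (-0.382). Scaling of the arrays ended 8 of these calls, those of CAT1 clone 3, CYCD3.3, LOC102577529, LOC102581985 clone 2, METK1 clone 9, MIP2 clone 2, PK and SHKA. With a root replicate left out, 1 root RNA sample of each line remains and the spread comes from leaf alone. Calls from such fits are therefore not given. Without leaf replicate 1, 5 ended (LOC102577529, LOC102581985 clone 2, METK1 clone 9, PHA2 and SHKA). Without leaf replicate 2, 6 ended, those of LOC102577529, LOC102581985 clone 2, LOC102587499 clones 8 and 9, METK1 clone 9 and PHA2. Without leaf replicate 3, 3 ended (LOC102577529, LOC102587499 clone 9 and METK1 clone 9).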

How the results depend on the processing

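Scaling the arrays to a common spread changed the root count the most: 199 clones passed, 122 higher and 77 lower in 4x, against 2481, 1223 and 1258, and 876 against 1614 for the tissue difference. Of the 53 named root calls it ended 41, and of the 45 named tissue differences 8, with no sign turned. Scaled values weigh the steps below and above the diploids unequally, as stated above. The cause of the lost calls was not tested. Re-centring (2420), the 75% rule for missing values (2449), robust eBayes (2451), 1 spot per clone (1990 and 2010 of fewer clones) and the array-level fit with no replicate block (2521) kept the root count within 1.5 times, and these ended 1 to 6 named calls each; LOC102577566 clone 1 lost its call with no replicate block, at 1.11. The replicate block is built into the loops, so no pairing of the numbers was tested. The joint fit with leaf, over fewer clones, gave 1699, with 788 higher; 5 named calls were gained and 3 lost (SRE1A clones 1 and 3, STWRKY8 clone 1). Leaving out replicate 4 or 5 left 1 loop over 5121 clones, with 646 to 716 clones in all, 347 to 427 higher and 289 to 299 lower; clones not measured in leaf have no such value. For the tissue difference, leaving out 1 replicate gave 694 to 1658 clones: 930 without root replicate 4, 694 without root replicate 5, fewer than with scaling, and 1009 without leaf replicate 2. The tissue difference of CAT1 clone 2 turned with the root replicate. It was -0.88 without root replicate 5 and 1.21 without root replicate 4, against 0.16 with both. The eBayes trend was not run, as it needs intensities.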
